A study of Mus musculus with 6 samples.

Results

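Neurotransmitter receptors are the proteins with which a neuron senses glutamate, GABA, glycine or acetylcholine, and their genes were followed here in embryonic mouse cervical spinal cord. The genes were chosen by symbol: every row of the array table annotated to a single gene of the AMPA (Gria), kainate (Grik), NMDA (Grin), delta (Grid) and metabotropic (Grm) glutamate families, the GABA-A (Gabra, Gabrb, Gabrg) and GABA-B (Gabbr) families, the glycine receptor subunits (Glra, Glrb), and the nicotinic (Chrna, Chrnb) and muscarinic (Chrm) acetylcholine receptors. This gave 57 genes of 19935 in the table, read by 59 probe sets of 28815, because Gabrb2 had 3 probe sets and every other gene 1. By transmitter there were 23 genes for glutamate, 11 for GABA, 5 for glycine and 18 for acetylcholine.

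AMPA, kainate and NMDA receptors are cation channels opened by glutamate, and metabotropic glutamate receptors act through G proteins. GABA-A and glycine receptors are chloride channels. In the embryonic cord they depolarise neurons, because immature neurons hold much chloride, and they turn inhibitory later. Nicotinic receptors are cation channels opened by acetylcholine, the transmitter of motor neurons, and muscarinic receptors are its G protein-coupled receptors. Several families exchange an embryonic subunit for a later one as the cord matures.

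The tissue was cervical cord at embryonic day 11.5, taken without its dorsal part and floor plate. There were 3 arrays labelled Nkx2.9 knockout, named knockout A, B and C here after their labels, and 3 labelled wild type, also A, B and C, and values are given in that order. Nkx2.9 is a homeodomain transcription factor of ventral progenitors, and the study sought genes downstream of it in spinal accessory motor neurons. The labels give no strain, no design of the targeted allele, no sex, and no word on whether an array stands for 1 embryo or a pool. All p-values therefore set a difference against the spread between these arrays only.

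The deposited values were log2 expression values centred probe set by probe set, so that the middle of the 6 arrays is 0. A value of 0.5 therefore means 0.5 log2 units above that probe set's own middle, and no statement on how strongly a receptor was expressed, or whether it was detected, can be made. For the same reason the labelled tissue could not be checked by the level of its markers. Nkx2-9 itself stood at -0.071, 0.26 and 0.11 on labelled-knockout arrays A to C, against -0.21, 0.071 and -0.11 on wild-type arrays A to C. Its difference of 0.18 (SE 0.11) was not a decrease, and the place of its probes relative to the targeted part was not known, so directions below rest on the labels. Xist, the RNA of the inactive X chromosome, was at 4.56 on knockout B and 4.91 on knockout C, and ranged from -0.25 to 0.11 elsewhere. The Y-linked genes Eif2s3y, Uty and Kdm5d ran the opposite way, so sex and genotype were partly mixed.

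None of the 59 receptor probe sets differed between the groups after adjustment over the whole table in limma, where adjusted p lay between 0.812 and 0.999. No probe set of the table passed either (0%), nor did any with an unequal-variance test, while 1605 of 28815 had an unadjusted p under 0.05. At an unadjusted p under 0.05 there were 10 receptor probe sets, 8 lower and 2 higher in the arrays labelled knockout. That is 16.9% of the receptor probe sets, against 5.57% of all probe sets (2.5% lower and 3.07% higher). The count rested on single arrays. It was 20 (33.9%, against 9.96% of all) with knockout B left out, and 1 (1.69%, against 5.03%) with knockout A left out. Leaving out knockout C gave 3 (5.08%, against 4.1%) and wild-type A 3 (5.08%, against 4.5%). Leaving out wild-type B gave 2 (3.39%, as over all probe sets) and wild-type C 9 (15.3%, against 6.5%). An unequal-variance test gave 1 (1.69%, against 3.22%). With a term for the 2 arrays of high Xist, knockout A was the only labelled-knockout array of low Xist. The difference is then knockout A minus the wild-type mean, so only its size is given below, and no count.

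The median difference over the 59 probe sets, labelled knockout minus wild type, was -0.043, and 42 of them (71.2%) lay below 0, against a median of 0.0087 and 45% below 0 over all probe sets. With single arrays left out the median ran from -0.070 (without knockout B) to -0.018 (34 of 59 lower, without wild-type B). It was -0.086 with the Xist term, which sets knockout A alone against wild type. By transmitter the median difference was -0.031 for glutamate (17 of 23 probe sets lower), -0.16 for GABA (11 of 13), -0.043 for glycine (3 of 5) and -0.0052 for acetylcholine (11 of 18). The glycine median was 0.019 without knockout A and 0.036 without wild-type A, and the acetylcholine median was at most 0.030 from 0 under every alternative. In whole tissue, fewer neurons and less receptor RNA per neuron cannot be told apart.

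**Figure D1:**
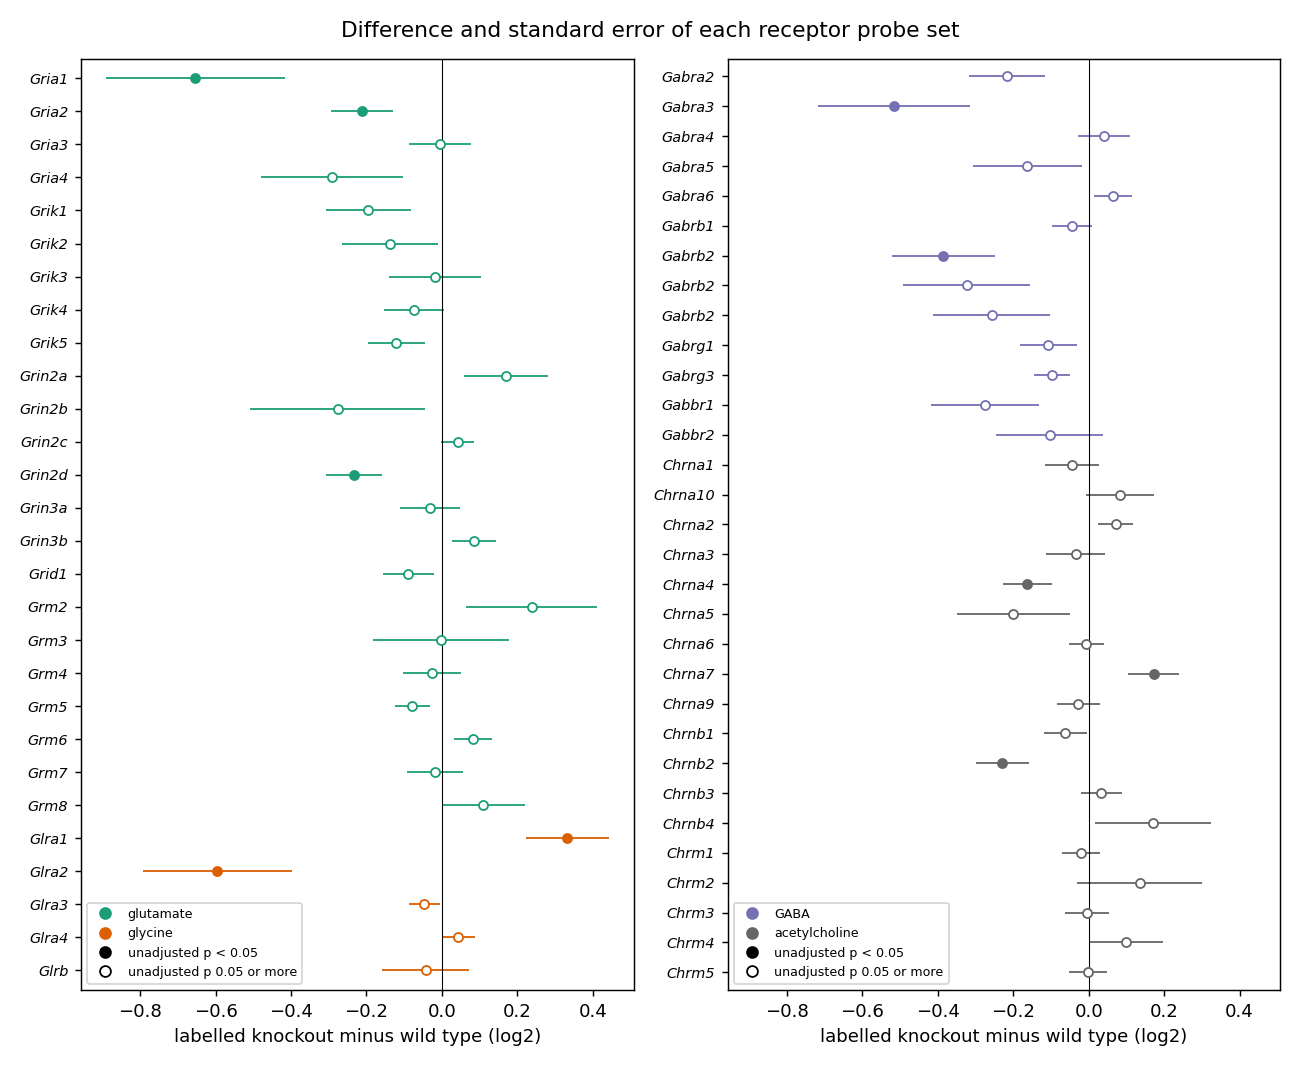
Each of the 59 receptor probe sets is shown with its difference between the arrays labelled knockout and the wild type (log2, horizontal axis) and its standard error from limma (bar); colour gives the transmitter and filled points an unadjusted p under 0.05. The AMPA, kainate and GABA subunits lie mostly left of 0, whereas the muscarinic and metabotropic glutamate receptors lie on both sides of it, and Gria1 (-0.65) and Glra1 (0.33) mark the 2 ends.

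The AMPA receptor family held the lowest value of all. Gria1 encodes subunit GluA1 of this receptor, which carries most fast excitatory transmission. It stood at -0.87, 0.019 and -0.78 on labelled-knockout arrays A to C, against -0.019, 0.073 and 0.28 on wild-type arrays A to C. Knockout A and C lay far below all wild-type arrays and knockout B lay among them, so the groups overlapped. The difference was -0.65 (SE 0.24, 1.57-fold lower; unadjusted p = 0.0311). Gria1 averaged -0.54 ± 0.49 on the arrays labelled knockout and 0.11 ± 0.15 on wild-type arrays (SD, n = 3 each). The difference was -0.93 without knockout B and -0.49 without knockout A.

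Gria2 encodes GluA2, the subunit that keeps calcium from passing through the AMPA channel. Its values were -0.14, 0.013 and -0.18 on labelled-knockout arrays A to C, against 0.10, 0.24 and -0.013 on wild-type arrays A to C. Again knockout A and C were lowest, and knockout B and wild-type C overlapped. The difference was -0.21 (SE 0.083, unadjusted p = 0.0413). Gria4, which encodes GluA4, had -0.20, 0.19 and -0.49 on labelled-knockout arrays A to C, and -0.0034, 0.38 and 0.0034 on wild-type arrays A to C. Array B was the highest of either group, and the difference of -0.29 (SE 0.19) was smaller than the SD of 0.34 among the knockout arrays. Gria3, which encodes GluA3 and lies on the X chromosome, differed by -0.0040 (SE 0.082). The AMPA median was -0.25, and it stayed between -0.37 and -0.15 when single arrays were left out. All 4 genes were below 0 as deposited, and 3 of 4 with quantile normalization, with array weights, and without knockout A, knockout C or wild-type C, where Gria3 turned.

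All 5 kainate receptor genes were below 0, with differences from -0.20 to -0.019 and no unadjusted p under 0.05. Grik1, encoding subunit GluK1, was at -0.0043, -0.099 and -0.012 on labelled-knockout arrays A to C, against 0.0043, 0.42 and 0.051 on wild-type arrays A to C. The groups did not overlap, with knockout A and wild-type A almost touching, and without wild-type B the difference of -0.20 (SE 0.11) was -0.066. Such separation was seen in 9 receptor probe sets (15.3%), 3 with the knockout arrays above and 6 below, against 10.9% of all complete probe sets (6.68% above and 4.25% below). Grik5, encoding subunit GluK5, stood at -0.13, 0.064 and -0.17 on labelled-knockout arrays A to C, against -0.0050, 0.12 and 0.0050 on wild-type arrays A to C. It overlapped, with a difference of -0.12 (SE 0.076). With arrays quantile normalized, 4 of the 5 genes were below 0 and the family median was -0.082, against -0.12 as deposited. It was -0.011 without knockout C.

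NMDA receptor subunits did not share a direction. Grin2d encodes GluN2D, a subunit prominent in the embryonic brainstem and cord. It stood at -0.093, -0.042 and -0.18 on labelled-knockout arrays A to C, against 0.075, 0.27 and 0.042 on wild-type arrays A to C. The groups did not overlap, and the difference was -0.23 (SE 0.074, 1.17-fold lower; unadjusted p = 0.0183). Grin2b encodes GluN2B, the other early subunit, and had the widest spread of the family, with -0.20, 0.27 and -0.70 on labelled-knockout arrays A to C and -0.023, 0.20 and 0.023 on wild-type arrays A to C. Its difference of -0.28 (SE 0.23) was -0.031 without knockout C and -0.52 without knockout B. Grin2a, whose product GluN2A becomes common after birth, stood at -0.052, 0.28 and 0.052 on labelled-knockout arrays A to C, against -0.11, -0.21 and 0.087 on wild-type arrays A to C. The difference was 0.17 (SE 0.11), with overlap. Grin2c, Grin3a and Grin3b lay between -0.031 and 0.084. The family median was 0.0051, and left-out arrays moved it between -0.026 and 0.036.

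Grid1, which encodes a delta receptor that binds cerebellins at synapses, had 0.030, -0.030 and -0.16 on labelled-knockout arrays A to C, against 0.11, -0.042 and 0.035 on wild-type arrays A to C. The groups overlapped, with a difference of -0.089 (SE 0.068). The 7 metabotropic glutamate receptor genes had a median of -0.0027, between -0.079 and 0.24, and none had an unadjusted p under 0.05. Grm5 couples to calcium release and was at -0.073, -0.039 and 0.0071 on labelled-knockout arrays A to C, against 0.053, 0.086 and -0.0071 on wild-type arrays A to C. Grm6 is known as the receptor of retinal ON bipolar cells. It was at 0.034, 0.15 and 0.0093 on labelled-knockout arrays A to C, against -0.032, -0.0093 and -0.015 on wild-type arrays A to C. The groups of Grm6 did not overlap, yet the difference was only 0.082 (SE 0.050), and that of Grm5 was -0.079 (SE 0.046). Grm2 had the highest difference among metabotropic genes, 0.24 (SE 0.17), and its value on knockout C was 0.63.

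**Figure D2:**
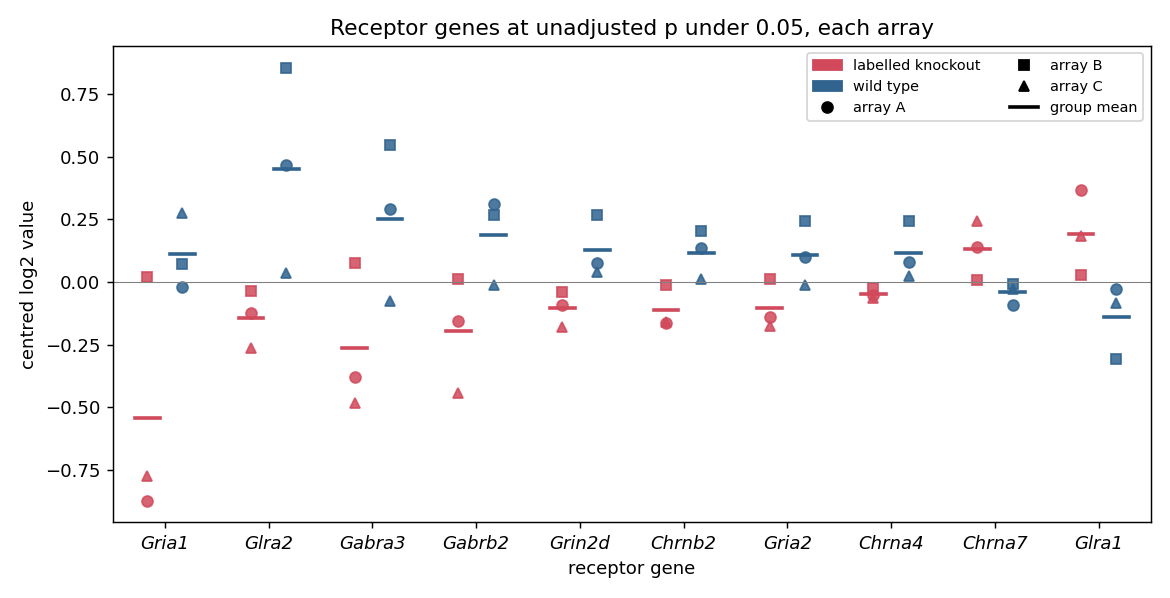
The 10 receptor probe sets at an unadjusted p under 0.05 are plotted as centred log2 values (vertical axis) for the 3 arrays labelled knockout and, to their right, the 3 wild-type arrays, with a line at each group mean. Knockout B (square) lies nearest the wild-type values in all of the 8 lower genes, and wild-type C (triangle) is the lowest wild-type array in all of them but Gria1.

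Among GABA-A receptor genes 9 of 11 probe sets were below 0, with a median of -0.16 that ran from -0.26 (wild-type C left out) to -0.087 (wild-type B left out). Gabra3 encodes the alpha3 subunit, one of the alpha subunits of the immature nervous system, and lies on the X chromosome. It stood at -0.38, 0.077 and -0.48 on labelled-knockout arrays A to C, against 0.29, 0.55 and -0.077 on wild-type arrays A to C. The groups overlapped through knockout B and wild-type C, and the difference was -0.51 (SE 0.20, 1.43-fold lower; unadjusted p = 0.0406). Without wild-type B it was -0.37 and without knockout B -0.68.

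Gabrb2, for the beta2 subunit, was read by 3 probe sets, all below 0. That with the lowest p had -0.16, 0.010 and -0.44 on labelled-knockout arrays A to C, against 0.31, 0.27 and -0.010 on wild-type arrays A to C, a difference of -0.38 (SE 0.14, unadjusted p = 0.0284). The other two had differences of -0.32 (SE 0.17) and -0.26 (SE 0.15), and in all 3 knockout C was the lowest array. They are parts of 1 gene and do not count as separate evidence; with 1 probe set per gene the GABA median was -0.11.

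The alpha2 and alpha5 genes of the embryonic cord, Gabra2 and Gabra5, differed by -0.22 (SE 0.10) and -0.16 (SE 0.15), and both were highest on wild-type B, at 0.39 and 0.48. Gabra6, known from cerebellar granule cells, was at 0.065 (SE 0.051). The other GABA-A genes, Gabra4, Gabrb1, Gabrg1 and Gabrg3, lay between -0.11 and 0.041. GABA-B receptors are G protein-coupled and consist of the products of Gabbr1 and Gabbr2. Gabbr1 stood at -0.089, 0.0065 and -0.52 on labelled-knockout arrays A to C, against -0.0065, 0.20 and 0.028 on wild-type arrays A to C. Gabbr2 stood at -0.13, 0.22 and -0.37 on labelled-knockout arrays A to C, against 0.015, 0.033 and -0.015 on wild-type arrays A to C. In both genes knockout C was lowest and the groups overlapped; the differences were -0.28 (SE 0.14) and -0.10 (SE 0.14), and without knockout C they were -0.11 and 0.036.

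Among the glycine receptor genes, Glra2 had the lowest difference and Glra1 the highest. Glra2 encodes the alpha2 subunit, which forms the embryonic glycine receptor, and Glra1 the alpha1 subunit, which replaces it in the mature cord. Glra2 was at -0.12, -0.037 and -0.27 on labelled-knockout arrays A to C, against 0.47, 0.86 and 0.037 on wild-type arrays A to C. The groups did not overlap, and the difference was -0.60 (SE 0.20, 1.51-fold lower; unadjusted p = 0.0222). Glra2 averaged -0.14 ± 0.12 on the arrays labelled knockout and 0.45 ± 0.41 on wild-type arrays (SD, n = 3 each), so the spread was wider in wild type, and without wild-type B the difference was -0.39.

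Glra1 was at 0.37, 0.027 and 0.18 on labelled-knockout arrays A to C, against -0.027, -0.31 and -0.082 on wild-type arrays A to C. Here too the groups did not overlap, with a difference of 0.33 (SE 0.11, 1.26-fold higher; unadjusted p = 0.0215) that was 0.25 without wild-type B and 0.24 without knockout A. Wild-type B was thus the highest array for Glra2 and the lowest for Glra1. Glrb, the beta subunit that anchors the receptor at synapses, differed by -0.043 (SE 0.12), Glra3 by -0.047 (SE 0.042) and Glra4 by 0.044 (SE 0.045). Receptors at or over 1.5-fold were Gria1 and Glra2, 2 of 59, against 0.34% of all probe sets.

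The windows around the annotated starts of Glra2, Gria2 and Grin2d, all lower genes, are shown as examples. They carry letters of RE1, the element to which the repressor REST binds in genes of neurons. Such letters were not particular to lower genes. Gabrb2 carries them too, and so do Grm2, Chrnb4 and Chrm2, whose differences were above 0. The windows of Gabra3, Chrna4 and Chrnb2, also lower genes, hold none of them. The windows shown were picked after their values were seen. They run from 250 bases before to 50 bases after the start (RefSeq, GRCm38.p6): chrX:165327344-165327643 for Glra2, chr3:80802786-80803085 for Gria2 and chr7:45866632-45866931 for Grin2d, all on the minus strand and read along it. Capitals mark, on either strand, the 2 RE1 parts GGACAG and TTCAGCAC and the core TNAAGTG of NK2 homeodomain proteins, the family of Nkx2.9.
Glra2: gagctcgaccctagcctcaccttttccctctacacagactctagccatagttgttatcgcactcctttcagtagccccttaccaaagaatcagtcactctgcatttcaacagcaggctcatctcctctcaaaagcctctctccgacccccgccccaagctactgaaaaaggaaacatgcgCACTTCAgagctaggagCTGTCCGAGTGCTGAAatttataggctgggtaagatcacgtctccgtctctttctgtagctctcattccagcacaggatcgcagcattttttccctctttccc
Gria2: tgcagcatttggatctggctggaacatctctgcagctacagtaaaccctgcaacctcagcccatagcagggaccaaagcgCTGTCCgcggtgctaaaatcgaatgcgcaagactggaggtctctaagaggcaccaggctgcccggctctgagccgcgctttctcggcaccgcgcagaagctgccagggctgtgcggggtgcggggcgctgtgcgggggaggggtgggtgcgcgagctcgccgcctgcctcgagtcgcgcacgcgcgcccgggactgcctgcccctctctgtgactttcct
Grin2d: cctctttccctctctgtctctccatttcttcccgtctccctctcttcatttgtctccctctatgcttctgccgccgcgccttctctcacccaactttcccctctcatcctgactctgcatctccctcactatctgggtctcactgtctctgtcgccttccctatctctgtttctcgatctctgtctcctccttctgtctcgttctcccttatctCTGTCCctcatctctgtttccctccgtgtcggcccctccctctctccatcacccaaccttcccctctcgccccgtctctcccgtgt

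Windows were on file for 43 of the 57 genes (51 windows). The part GGACAG was present in 19 of the 51 windows (37.3%), against 22.2% of 32851 windows of all genes, and TTCAGCAC in 2 (3.92%), Glra2 and Grm2, against 1.17%. Receptor windows had a median GC content of 59%, against 52.7% for all windows, and its part in these shares was not tested. The letters TTCAGCAC followed by GGACAG, with 2 bases between them, were found in 1 of the 32851 windows, that of Glra2. The match lay on the strand opposite to the gene, beginning 53 bases before the gene's start. It is made of the same letters as the single parts. No other spacing and no inexact match was searched, so the search does not count RE1 elements. The count of 1 holds for that exact spacing only and is no measure of how rare joined RE1 parts are. In the Gria2 window the marked CTGTCC is followed, after a wider gap, by gtgctaaa. That differs by 1 letter from GTGCTGAA, the match in Glra2, and was left unmarked. The NK2 core stood in 4 windows (7.84%), those of Chrm5, Chrna1, Chrnb1 and Glra2, against 11.5% of all windows. In Glra2 it began 70 bases before the start, also on the opposite strand. Both strands were searched. These matches describe letters in a window of 300 bases and say nothing on whether either factor binds there.

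Neuronal nicotinic receptors of the main brain type join the products of Chrna4 and Chrnb2. Chrnb2, for the beta2 subunit, had the lowest unadjusted p of all receptor probe sets (0.0158). It stood at -0.16, -0.011 and -0.16 on labelled-knockout arrays A to C, against 0.14, 0.20 and 0.011 on wild-type arrays A to C. The groups did not overlap, and the difference was -0.23 (SE 0.070, 1.17-fold lower). Chrnb2 averaged -0.11 ± 0.087 on the arrays labelled knockout and 0.12 ± 0.098 on wild-type arrays (SD, n = 3 each). Chrna4, for the alpha4 subunit, was at -0.052, -0.025 and -0.063 on labelled-knockout arrays A to C, against 0.078, 0.24 and 0.025 on wild-type arrays A to C. Its groups were separate as well, with a difference of -0.16 (SE 0.064, unadjusted p = 0.0423) that was -0.099 without wild-type B.

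Chrna7 encodes the alpha7 subunit, which forms channels by itself and passes calcium. Its values went the other way, at 0.14, 0.0081 and 0.24 on labelled-knockout arrays A to C, against -0.091, -0.0081 and -0.026 on wild-type arrays A to C. The groups did not overlap, with a difference of 0.17 (SE 0.068, 1.13-fold higher; unadjusted p = 0.0428), and B was the array at which the groups came closest. The other 10 nicotinic genes lay between -0.20 and 0.17 with no unadjusted p under 0.05, among them Chrna1 and Chrnb1 of the muscle receptor, at -0.043 (SE 0.072) and -0.062 (SE 0.057). Chrna5 was at 0.55 on wild-type B, and no other array lay outside -0.049 to 0.022.

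Muscarinic receptor genes had a median difference of -0.0016 over 5 genes, and in all 5 the groups overlapped. Their median was 0.0038 with quantile normalization, and that of the metabotropic glutamate receptors 0.092, so neither class had a settled direction. Chrm2, a receptor coupled to inhibitory G proteins, stood at 0.23, 0.063 and -0.11 on labelled-knockout arrays A to C, against -0.39, 0.23 and -0.063 on wild-type arrays A to C. Its difference of 0.14 (SE 0.17) rested on wild-type A and was -0.021 without it. Chrm4, of the same coupling, stood at 0.046, -0.046 and 0.15 on labelled-knockout arrays A to C, against -0.22, -0.051 and 0.12 on wild-type arrays A to C, a difference of 0.099 (SE 0.098). Chrm1, Chrm3 and Chrm5 lay between -0.020 and -0.0016.

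Receptors also differed in how far the 6 arrays spread. The median range over the arrays was 0.31 for receptors and 0.23 for all complete probe sets, and 16 of the 59 were among the 10% of probe sets with the widest range. Gria1 (1.15), Glra2 (1.12), Gabra3 (1.03), Grin2b (0.98) and Gria4 (0.86) were widest. Chrna6 (0.088), Grin2c (0.11), Glra4 (0.11) and Glra3 (0.11) were narrowest. Centred values do not tell a transcript near background from one at a steady level.

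Neighbouring receptor genes had differences of unequal size and often of either sign. In the RefSeq gene order, 7 groups of receptor genes lay with at most 4 protein-coding genes between them. Glra1 and Gria1 on chromosome 11 have 1 such gene between them and differed by 0.33 and -0.65. Gria2 and Glrb are adjacent on chromosome 3, at -0.21 and -0.043. On chromosome 5 Gabrg1, Gabra2, Gabra4 and Gabrb1 were at -0.11, -0.22, 0.041 and -0.044, and on chromosome 9 Chrna5, Chrna3 and Chrnb4 were at -0.20, -0.035 and 0.17. The 4 receptor genes of the X chromosome were Glra2 (-0.60), Gabra3 (-0.51), Gria3 (-0.0040) and Glra4 (0.044). With a term for the 2 arrays of high Xist, which leaves knockout A alone against wild type, Glra2 was at -0.58 and Gabra3 at -0.63.

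Genes whose products carry, anchor or modulate these receptors were taken from lists of partners. Of 37 measured partners of glutamate receptors, 30 were below 0 (81.1%, against 45% of all probe sets), with a median of -0.11. In limma 4 of them had an unadjusted p under 0.05 (10.8%, against 5.57% of all probe sets), all lower. Of the 17 partners of GABA and glycine receptors 13 were below 0 (76.5%, median -0.075), and of the 16 of acetylcholine receptors 12 (75%, median -0.042). At 5.88% and 6.25%, near the share over all probe sets, these lists each had 1 gene at that p, also lower. None passed over all probe sets in limma (lowest adjusted p 0.812), and single left-out arrays moved the median of the glutamate list between -0.17 and -0.090. The GABA and glycine list was less steady, at -0.0062 (10 of 17 lower) without knockout C and -0.020 with the Xist term.

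Cacng3 and Cacng8 encode TARPs, proteins that carry AMPA receptors to the membrane and slow their closing. Cacng3 stood at -0.57, -0.014 and -0.54 on labelled-knockout arrays A to C, against 0.014, 0.36 and 0.29 on wild-type arrays A to C, a difference of -0.59 (SE 0.17, 1.51-fold lower; unadjusted p = 0.0114). Cacng8 stood at -0.30, -0.066 and -0.29 on labelled-knockout arrays A to C, against 0.068, 0.066 and 0.097 on wild-type arrays A to C, a difference of -0.30 (SE 0.072, unadjusted p = 0.00537). In both genes knockout A and C were lowest and knockout B lay between them and the wild type, whereas in Gria1 knockout B lay among the wild-type arrays. The scaffold gene Shank1 (-0.28, SE 0.078) and the AMPA receptor escort gene Cnih2 (-0.28, SE 0.11) were the other two at that p.

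Insyn2a, whose product belongs to inhibitory synapses, differed by -0.32 (SE 0.080, unadjusted p = 0.00573), and Lypd1, a membrane-anchored modulator of nicotinic receptors, by -0.63 (SE 0.15, 1.55-fold lower; unadjusted p = 0.00444). Next in these lists stood Plcl1 (-0.29, SE 0.16) and Ly6h (-0.18, SE 0.089). Subunits of related channels that the symbol rule leaves out had a median of -0.0032 over 13 genes, with 7 below 0 and no unadjusted p under 0.05. The lowest p values among them were those of the serotonin-gated channel gene Htr3a (0.17, SE 0.070) and the GABA-A pi subunit gene Gabrp (-0.079, SE 0.049).

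Other gene groups varied between the arrays together with the receptors. The AMPA median of an array was -0.17, 0.10 and -0.33 on labelled-knockout arrays A to C, against -0.0092, 0.16 and 0.022 on wild-type arrays A to C. GABA-A genes had array medians of -0.12, 0.060 and -0.10 on labelled-knockout arrays A to C, against 0.014, 0.14 and -0.010 on wild-type arrays A to C. In both classes array B was the highest of its group. Among all probe sets of the receptors, knockout C was the lowest array in 22 (37.3%) and wild-type B the highest in 26 (44.1%), against 18.5% and 18% of all complete probe sets.

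Markers of differentiated neurons, 11 of 12 of them below 0, had array medians of -0.040, -0.00054 and -0.17 on labelled-knockout arrays A to C, against 0.038, 0.16 and -0.018 on wild-type arrays A to C. As for the AMPA genes, knockout C was lowest and wild-type B highest, and Elavl3 (-0.13, SE 0.044) and Syt1 (-0.44, SE 0.17) had the lowest p. Markers of cycling cells, all 11 above 0 with a median difference of 0.33 and led by Mcm6 (0.39, SE 0.17) and Plk1 (0.34, SE 0.17), had array medians of 0.18, -0.089 and 0.26 on labelled-knockout arrays A to C, against -0.093, -0.55 and 0.042 on wild-type arrays A to C. Array B was the lowest of either group in this list, the reverse of the AMPA medians, and without wild-type B the median difference was 0.15. Mesenchyme markers had an array median of 1.18 on knockout C, and elsewhere it ranged from -0.052 to 0.16. Of the 2 with the lowest p, Meox1 (0.26, SE 0.17) was highest on knockout C, whereas Dcn (0.84, SE 0.58) was at -0.24 there and owed its difference to wild-type B, at -2.02. Lum, Foxc2 and Twist1 of this list, unlike Dcn, were high on wild-type B as well, at 1.66, 1.21 and 0.86. On knockout C they were at 3.31, 3.01 and 2.32. The part of neuron number, cycling cells and mesenchyme in the receptor differences was not tested.

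Marker lists of the neurons that release these transmitters were not alike. All 7 measured markers of inhibitory neurons were below 0 (median -0.24, and -0.049 without knockout C), among them the glycine transporter gene Slc6a5 at -0.37 (SE 0.13) and Pax2 at -0.33 (SE 0.15). Markers of excitatory neurons had a median of -0.010, with 4 of 7 below 0. Lhx9 was at -0.35 (SE 0.17), whereas Lhx2 was at 0.14 (SE 0.077), and the other vesicular glutamate transporter genes, Slc17a7 and Slc17a8, at 0.070 (SE 0.065) and 0.056 (SE 0.089). Slc17a6, which encodes a vesicular glutamate transporter found in the cord, was at -0.33, 0.028 and -1.43 on labelled-knockout arrays A to C, against 0.059, -0.028 and 0.23 on wild-type arrays A to C, a difference of -0.66 (SE 0.35) with knockout C far below the other arrays. Markers of motor neurons, the cholinergic cells, had a median of -0.022 over 10 genes (0.049 without wild-type B), with 6 below 0, Isl2 at 0.18 (SE 0.067) and Prph at -0.40 (SE 0.18). Skeletal muscle markers, which could bring muscle nicotinic receptor RNA, had array medians between -0.027 and 0.012 (lowest p Tnnt1, 0.37, SE 0.19, and Chrnd, -0.079, SE 0.055). Those of sensory and autonomic ganglia lay between -0.071 and 0.082, although Th was at 0.39 (SE 0.087) and Foxs1 at 0.12 (SE 0.077). Median differences of the remaining marker lists were 0.20 for floor plate (all 6 above 0; Foxa1 0.18, Foxa2 0.22), 0.26 for endothelium (Pecam1 0.26, Flt1 0.24; 0.024 without knockout C, and -0.085 with the Xist term), 0.31 for erythroid cells (Hbb-bh1 0.34, Hba-x 0.14; 0.041 without wild-type B), -0.0057 for neural progenitors (Prom1 0.36, Notch1 0.34), -0.033 for macrophages (Csf1r -0.033, Mrc1 0.10) and -0.022 for dorsal cord (Gdf7 -0.055, Msx1 -0.094).

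**Figure D3:**
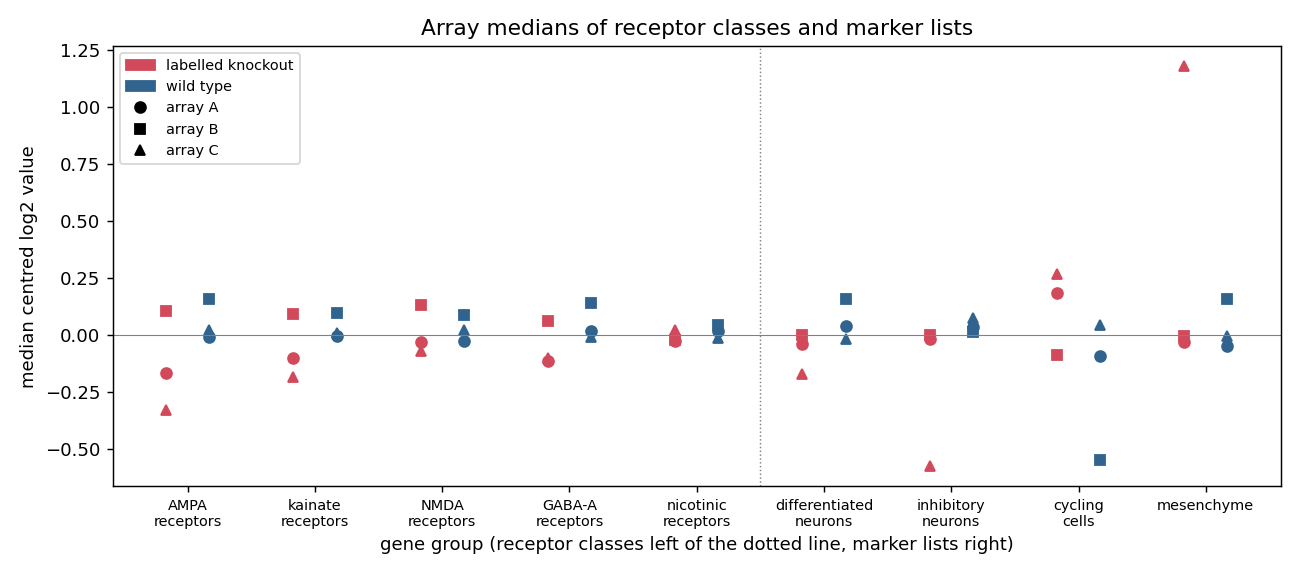
Medians of the centred log2 values (vertical axis) on each array are shown for 5 receptor classes and 4 marker lists, with the arrays labelled knockout left of the wild-type arrays. AMPA, kainate and GABA-A medians are lowest on knockout A and C, neuron markers are highest on wild-type B (0.16), cycling cell markers are lowest there (-0.55), and mesenchyme markers are at 1.18 on knockout C.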

How the data were processed

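Whole-transcriptome amplified, biotinylated RNA was hybridised to 6 arrays, per the labels' protocols, and genotype labels gave the groups. The authors deposited log2 values made with RMA, per the submitters' processing notes, with the base of 2 assumed from RMA; version, settings and genome build are not given in the sources used here. Complete probe sets had a median of 0 within 5e-07 over the arrays, so no level filter was possible. Of 28815 probe sets, 24 lacked wild-type C (no receptor) and were fitted on the other arrays. The platform annotation gave 21780 probe sets 1 symbol, 1605 several and 5430 none; all 57 receptor symbols matched RefSeq (GRCm38.p6).

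Differences were fitted over all probe sets with limma 3.58.1 (R 4.3.3; lmFit, eBayes, genotype only; Benjamini-Hochberg; moderated SEs) and tested on simulated data. The number of arrays limits precision. The 14 marker lists and 5 other lists (203 of 218 entries measured) used 1 probe set per gene. Array values are given for receptors at unadjusted p under 0.05, the 2 of lowest p per class, those at 1.5-fold and the 5 of widest range; each list names its 2 genes of lowest p, and other names are summaries or were chosen after their values were seen. Receptors and lists were chosen with earlier results of these data known. Alternatives were a letter block, quantile and median scaling, array weights, a robust prior, 1 probe set or the mean per gene, an unequal-variance test, an Xist term and leaving out each array. Plots used matplotlib 3.10.9 (Python 3.11.15).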

Additional observations from a re-analysis of the deposited data

How the results depend on the processing

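No receptor probe set passed an adjusted p of 0.05 under the main setting or under any of the 15 alternatives. Over all probe sets the count of 0 was 5 without knockout A and 0 under the other alternatives, including those without each other single array. The count of receptor probe sets at an unadjusted p under 0.05 was 10. It was 1 with the unequal-variance test and ran from 1 to 20 with single arrays left out, with the shares over all probe sets given above. The median differences of glycine and acetylcholine receptors were -0.086 and -0.030 with the Xist term, which leaves knockout A alone against wild type. The glycine median ran from -0.058 to 0.036 with single arrays left out. The cause of these shifts was not tested. The sign turned for Gabbr2 (-0.26 to 0.036 with single arrays left out) and Chrm2 (-0.021 to 0.29). Both belong to the 22 receptors whose array values are given by the rule stated with the methods, and the other 20 of these kept their sign under each alternative run for them. Receptors given by their difference alone were not followed one by one, and some with differences near 0, such as Gria3, turned. With the letter A, B or C as a replicate block in limma the count at unadjusted p was 13 (22%, against 8.86% of all probe sets), and no receptor passed after adjustment. The labels do not say that letters pair arrays. Among the other lists the largest counts with the letter block were 10 of 11 cycling cell markers and 10 of 37 glutamate receptor partners. Without it they were 0 and 4. The correlation of deviations between arrays of the same letter was 0.165, 0.216 and 0.0159 for A, B and C. Between A and B it was -0.182 and -0.187, and between knockout C and wild-type A 0.028. The block was kept as an alternative only because no pairing is stated. The signal over background cannot be judged from centred values.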
